A study of Mus musculus with 4 samples.

Results

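The 10 genes described here belong to the control of cell cycle arrest, most are linked to p53, and 1 of them, Mdm2, opposes p53. They were measured on 4 one-colour oligonucleotide arrays of RNA from mouse mesangial cells, the pericyte-like cells of the kidney glomerulus. The genes were Cdkn1a, Cdkn2b, Btg2, Plk2, Sesn1, Ccng1, Mdm2, Gadd45a, Gadd45b and Gadd45g. They were taken by symbol, with every probe set whose platform annotation gave exactly 1 symbol, which gave 22 probe sets for 10 genes, out of 45101 probe sets and 18193 named genes. Per the labels, 2 arrays carried RNA of mesangial cells in low glucose and 2 carried RNA of mesangial cells treated with TGF-beta1 (transforming growth factor beta 1). The sources used here give no strain, age, dose or time, and do not say how much glucose the TGF-beta1 cultures had, so glucose and the cytokine cannot be told apart. Separate cultures for the arrays of 1 group are not stated either, and p-values then reflect only array-to-array spread, which may be technical.

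p53 is a transcription factor that is stabilised by damaged DNA and other stresses and raises genes that halt the cycle, repair DNA or kill the cell. Its arrest arm works largely through p21, the product of Cdkn1a, which inhibits cyclin-dependent kinases (CDKs), and it is closed by Mdm2, a p53 target that marks p53 for destruction. TGF-beta slows many cells through SMAD proteins by another route, in which p15, the product of Cdkn2b, blocks CDK4 and CDK6, and p21 is raised without a need for p53. The Gadd45 proteins are small stress sensors that bind CDK1 complexes and the kinase MEKK4.

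Values are given as deposited intensities for each array, in the order low glucose replicates 1 and 2 and then TGF-beta1 replicates 1 and 2, and then as log2 differences, TGF-beta1 minus low glucose, after a pseudocount of 46.88 and quantile normalisation. These differences understate the change of dim genes. The arrays fell into 2 technical pairs across the groups. Array pair 1 was low glucose replicate 1 with TGF-beta1 replicate 2, and array pair 2 was low glucose replicate 2 with TGF-beta1 replicate 1. Spike-in transcripts, added to every sample, differed by 0.0535 and 0.0888 (mean absolute log2 difference) within the pairs and by 1.06 between the low glucose arrays. The 3' to 5' intensity ratio of the actin control followed the pairs more than the groups, at 1.18, 1.51, 1.32 and 1.18. "Rose" and "fell" below mean an adjusted p under 0.05 in limma with the array pair as a block, over 13565 tested genes, and values after ± are standard errors of that fit (n = 2 arrays per group). Those calls, their p-values and the standard errors rest on a spread shared by genes of the same brightness. They hold none of a gene's own spread between the array pairs. Without the block limma called 0 of 13565 genes, with 271 at an unadjusted p under 0.05, and with the block but the prior of the unblocked fit it called 0 as well, with 2242 at an unadjusted p under 0.05.

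Of the 10 genes 6 rose with TGF-beta1, 2 fell and 2 did not pass. Over all tested genes 18.5% were called, 7.89% as higher and 10.6% as lower. The 6 that rose were Gadd45a (1.86-fold), Cdkn1a (1.67-fold), Btg2 (1.58-fold), Plk2 (1.54-fold), Cdkn2b (1.35-fold) and Gadd45g (1.24-fold), and the 2 that fell were Sesn1 (1.57-fold lower) and Ccng1 (1.16-fold lower). Mdm2 and Gadd45b did not pass. The median difference of the 10 genes was 0.38 (0.40 and 0.35 within array pairs 1 and 2), beside 0.00 over all tested genes. Without the block, limma passed 0 of the 10 at the adjusted threshold and 6 had an unadjusted p under 0.05, which 2% of all tested genes had. With the block and the prior of the unblocked fit 0 of the 10 passed and 8 had an unadjusted p under 0.05, against 16.5% of all tested genes. The 10 genes were chosen with earlier results of these data known, so these shares do not test them as a set.

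**Figure D1:**
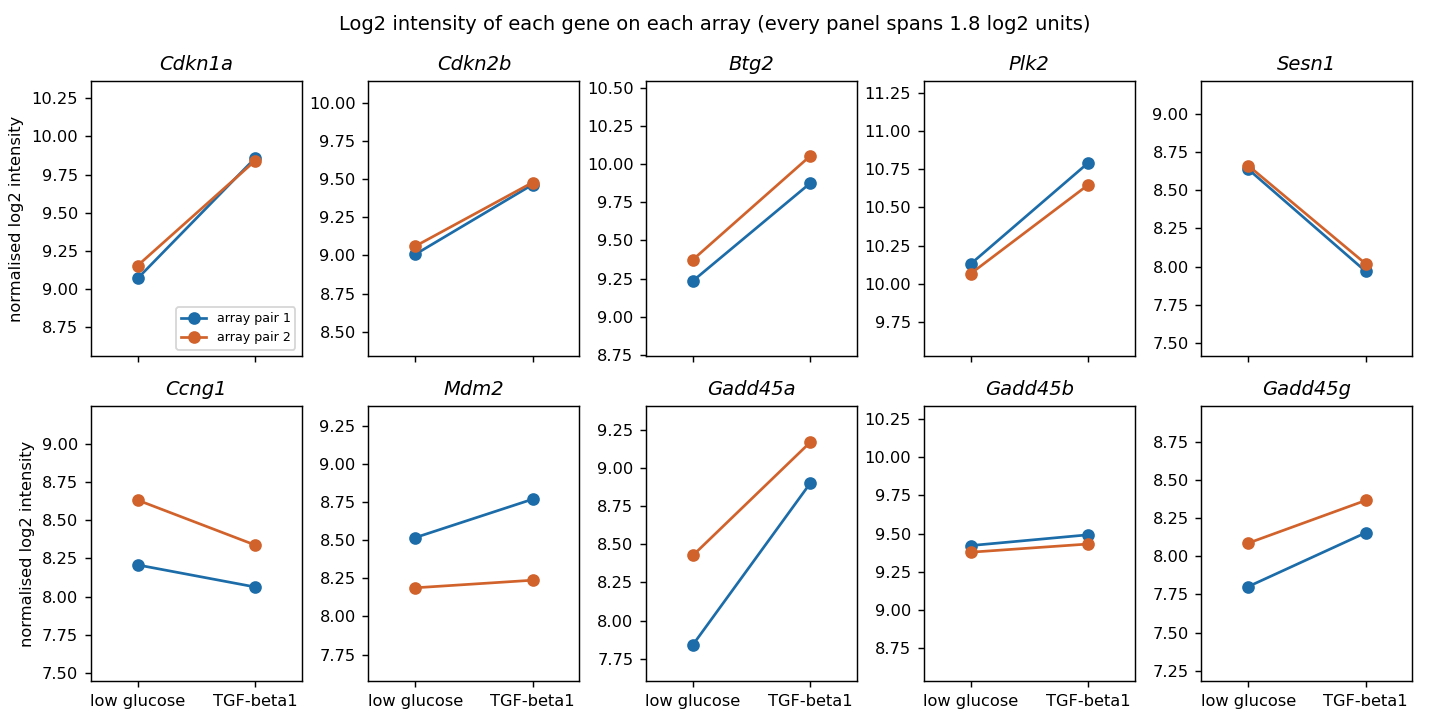
Normalised log2 intensity (y axis) of the 10 genes on the low glucose and TGF-beta1 arrays (x axis), with a line joining the arrays of each array pair and every panel spanning 1.8 log2 units. Both lines drop for Sesn1 and Ccng1 and climb for the other genes, by 0.05 to 0.25 in Mdm2 and Gadd45b, and the pairs lie apart by 0.43 in Gadd45a and in Mdm2.

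Both CDK inhibitors among the genes rose. Cdkn1a, which encodes p21, had deposited intensities of 493 and 517 on the low glucose arrays against 854 and 889 on the TGF-beta1 arrays (probe set 1424638_at). The TGF-beta1 arrays lay above both low glucose arrays, and the arrays of a group lay close together. The log2 difference was 0.74 ± 0.082 (0.79 in pair 1 and 0.69 in pair 2; blocked limma, adjusted p = 4.0e-17), the rise ranked 71 among the 13565 genes. Its other probe set, 1421679_a_at, read 168 and 167 against 286 and 291, a difference of 0.65. The array pair moved these probe sets by 0.03 and 0.09, less than the group did.

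The RefSeq promoter table (GRCm38.p6) holds 2 start windows for Cdkn1a, each from 250 bases before to 50 bases after a start. The upstream one (chr17:29090729-29091028, plus strand) is shown because it holds the letters of the p53 response element. The capitals mark adjoining copies of the p53 response element motif, which begin 51 bases before the start and hold at most 1 mismatch to the consensus over 20 bases.
Cdkn1a: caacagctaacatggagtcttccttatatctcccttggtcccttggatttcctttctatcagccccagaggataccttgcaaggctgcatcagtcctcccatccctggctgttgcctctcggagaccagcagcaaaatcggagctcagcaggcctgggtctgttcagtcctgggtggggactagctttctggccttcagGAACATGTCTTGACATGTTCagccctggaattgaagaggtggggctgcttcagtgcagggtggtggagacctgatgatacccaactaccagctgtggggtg
This 20-base pattern was chosen after the windows had been read, so its presence in this one is no finding. Such a match was present in 18 of the 32817 promoter windows searched (0.0549%) and in 1 of the 12 windows of the 10 genes. The 10-base p53 motif itself, searched on both strands with no mismatch, was found in 8.36% of all windows and in 5 of the 12: those of Cdkn1a upstream, Sesn1 downstream, Ccng1, Mdm2 and Gadd45a. Among the 10 genes, these include the largest rise, the largest fall and one that did not pass. A match describes letters and is not evidence of binding.

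Cdkn2b, which encodes p15, had intensities of 472 and 485 on the low glucose arrays against 656 and 672 on the TGF-beta1 arrays on its single probe set. The groups did not overlap, and the arrays within each group lay close together. It rose by 0.44 ± 0.081 (0.46 in pair 1 and 0.42 in pair 2; blocked limma, adjusted p = 1.86e-06), a rise of rank 209. The array pair moved it by 0.03.

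The antiproliferative genes Btg2 and Plk2 rose by similar amounts. Btg2, a p53-responsive member of the BTG/TOB family that recruits messenger RNA deadenylases, read 561 and 606 on the low glucose arrays against 1000.5 and 903 on the TGF-beta1 arrays (probe set 1416250_at). Both TGF-beta1 arrays were above both low glucose arrays. The difference was 0.66 ± 0.083 (0.64 in pair 1 and 0.68 in pair 2; blocked limma, adjusted p = 1.17e-13). On its other probe set, 1448272_at, the groups overlapped, at 516 and 317 against 477 and 738. There the array pair moved the value by 0.58, more than the group difference of 0.49, yet the differences within the pairs were 0.47 and 0.51.

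Plk2, a polo-like kinase induced by p53 and by growth stimuli, read 1087 and 1007 on the low glucose arrays against 1534 and 1772 on the TGF-beta1 arrays (probe set 1427005_at). The groups did not overlap. It rose by 0.62 ± 0.079 (0.66 in pair 1 and 0.58 in pair 2; blocked limma, adjusted p = 3.64e-13). A dim probe set, 1443780_at, read 41.3 and 42.3 against 59.3 and 39.4, below the filter on low values, and showed no common direction within the pairs (-0.05 and 0.25).

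The promoter windows of Btg2, Plk2 and Cdkn2b, all 3 of which rose, shared the 8 letters TGACGTCA, the cyclic AMP response element (CRE) to which CREB and ATF proteins bind. It was looked for after these windows had been read, so its presence in them chose it. Capitals mark it in the windows of Btg2 (chr1:134079106-134079405, minus strand), Plk2 (chr13:110394794-110395093, plus strand) and Cdkn2b (chr4:89310983-89311282, minus strand), where it begins 166, 62 and 46 bases before the start.
Btg2: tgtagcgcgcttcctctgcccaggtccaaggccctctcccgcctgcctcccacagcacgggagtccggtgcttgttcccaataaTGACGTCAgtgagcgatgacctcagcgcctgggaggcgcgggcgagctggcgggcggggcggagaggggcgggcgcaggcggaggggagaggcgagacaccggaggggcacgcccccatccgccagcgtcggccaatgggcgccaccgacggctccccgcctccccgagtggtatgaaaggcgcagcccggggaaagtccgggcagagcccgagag
Plk2: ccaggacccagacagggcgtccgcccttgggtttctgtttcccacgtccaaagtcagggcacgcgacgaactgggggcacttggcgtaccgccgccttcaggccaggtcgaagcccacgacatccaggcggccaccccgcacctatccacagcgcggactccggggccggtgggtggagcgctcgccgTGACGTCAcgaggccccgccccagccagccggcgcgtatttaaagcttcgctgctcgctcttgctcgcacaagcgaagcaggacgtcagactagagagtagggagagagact
Cdkn2b: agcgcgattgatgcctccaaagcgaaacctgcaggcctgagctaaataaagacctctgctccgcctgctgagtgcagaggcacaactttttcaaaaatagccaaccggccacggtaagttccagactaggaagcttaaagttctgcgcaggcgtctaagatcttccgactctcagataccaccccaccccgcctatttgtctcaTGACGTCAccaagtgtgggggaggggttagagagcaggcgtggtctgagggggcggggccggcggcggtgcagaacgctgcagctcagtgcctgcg
The motif was present in 3 of the 12 windows of these genes and in 1.79% of all 32817 windows. Searched on both strands, the 4-letter SMAD box GTCT was present in all 12 windows and in 88% of all windows. The 8-letter palindrome GTCTAGAC, which contains GTCT, and the AP-1 site TGACTCA were in 0 of the 12 (0.213% and 5.21% of all windows), and GGCGCC was in 1, that of Btg2 (11.9% of all windows).

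The Gadd45 family split. Gadd45a, the family member known as a p53 target, read 194 and 289 on the low glucose arrays against 523 and 433 on the TGF-beta1 arrays. Both TGF-beta1 arrays were above both low glucose arrays, while the low glucose arrays also differed from each other. It rose by 0.90 ± 0.072 (1.06 in pair 1 and 0.74 in pair 2; blocked limma, adjusted p = 9.0e-33), which ranked 34 among all rises. The array pair moved it by 0.43. Without 1 array, and without the block, the difference ranged from 0.61 to 1.17.

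Gadd45b, known as an early target of TGF-beta in other cells, read 648 and 608 on the low glucose arrays against 636 and 685 on the TGF-beta1 arrays on its brightest probe set. The deposited intensities of the groups overlapped. Its difference was 0.06 ± 0.082 (0.07 in pair 1 and 0.05 in pair 2; blocked limma, adjusted p = 0.671). Its second probe set, 1449773_s_at, was at -0.01, and the dim probe set 1420197_at was below the filter, at 41.9 to 72.8 on the 4 arrays.

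Gadd45g, the remaining family member, read 188 and 215 on the low glucose arrays against 277 and 247 on the TGF-beta1 arrays, without overlap. It rose by 0.32 ± 0.066 (0.35 in pair 1 and 0.28 in pair 2; blocked limma, adjusted p = 3.39e-05). Without low glucose replicate 1 the difference was 0.18 and without TGF-beta1 replicate 1 it was 0.20, in the fit without the block.

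**Figure D2:**
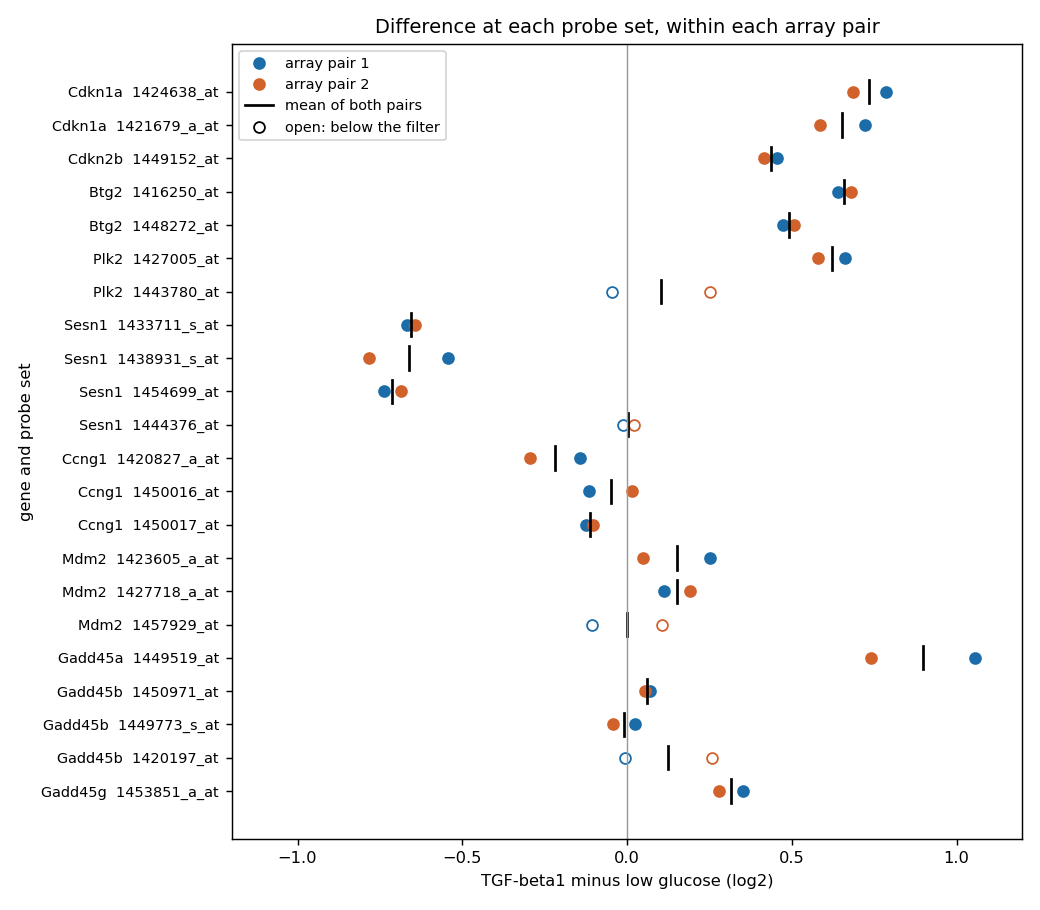
Log2 difference, TGF-beta1 minus low glucose (x axis), at each of the 22 probe sets (y axis), with 1 point for each array pair, a black line at their mean and open points for the 4 probe sets below the filter. The kept probe sets of Cdkn1a and Btg2 lie on the right and the 3 of Sesn1 on the left, while the means of the kept ones of Ccng1, Mdm2 and Gadd45b lie between -0.22 and 0.15.

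Among the p53 targets that work outside the CDK inhibitors, Sesn1 went the other way. Sesn1 encodes sestrin 1, a stress protein that restrains the growth kinase mTORC1 and is raised by p53 and by FOXO factors. On its brightest probe set, 1433711_s_at, it read 359 and 354 on the low glucose arrays against 202 and 215 on the TGF-beta1 arrays. The groups lay well apart and the arrays within each close together. It fell by 0.65 ± 0.068 (-0.67 in pair 1 and -0.64 in pair 2; blocked limma, adjusted p = 1.63e-19), the fall ranked 42 of 13565. The probe set 1454699_at read 131 and 197 against 102 and 59.1, a difference of -0.71. On 1438931_s_at the groups overlapped, at 201 and 400.1 against 205 and 129. There the array pair moved the value by 0.82, and the differences within the pairs were -0.54 and -0.78. Another, dim probe set, 1444376_at, was below the filter and at 0.00. The suffix _s_at marks probes that may match more than 1 transcript, which applies to 2 of the 3 kept probe sets and not to 1454699_at.

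The upstream start window of Sesn1 (chr10:41810324-41810623, plus strand) is shown because it holds the forkhead letters GTAAACA, in capitals on the strand opposite to the one printed, beginning at base 23 counted from the start as 1. This motif too was looked for after the windows had been read.
Sesn1: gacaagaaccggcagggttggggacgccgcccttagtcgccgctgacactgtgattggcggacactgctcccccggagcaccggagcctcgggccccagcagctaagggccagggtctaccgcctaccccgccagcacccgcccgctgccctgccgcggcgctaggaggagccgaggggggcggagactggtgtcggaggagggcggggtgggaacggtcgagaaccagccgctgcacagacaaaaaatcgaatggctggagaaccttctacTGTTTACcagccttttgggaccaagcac
The same 7 letters, on either strand, were in 2 of the 12 windows, those of Sesn1 and Mdm2, and in 3.65% of all windows.

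Ccng1, which encodes cyclin G1, a p53 target that recruits a phosphatase to Mdm2, read 258 and 345 on the low glucose arrays against 271 and 231 on the TGF-beta1 arrays on probe set 1420827_a_at. The groups overlapped, and the array pair moved the value by 0.35. It fell by 0.22 ± 0.068 (-0.14 in pair 1 and -0.29 in pair 2; blocked limma, adjusted p = 0.0112). Its other probe sets, 1450016_at and 1450017_at, were at -0.05 and -0.11 and did not pass (adjusted p = 0.693 and 0.24 with limma and the block over all kept probe sets). Without the block, the difference was -0.44 or -0.01 when low glucose replicate 1 or 2 was left out, and -0.35 or -0.08 when TGF-beta1 replicate 1 or 2 was.

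Mdm2, the p53-induced ubiquitin ligase that removes p53, read 327 and 235 on the low glucose arrays against 247 and 393 on the TGF-beta1 arrays on probe set 1423605_a_at. The groups overlapped. Its difference was 0.15 ± 0.070 (0.25 in pair 1 and 0.05 in pair 2; blocked limma, adjusted p = 0.122), and that of 1427718_a_at was 0.15 as well (0.11 and 0.19 within the pairs; adjusted p = 0.129 over all kept probe sets). Without the block, the difference was 0.32 or -0.01 when low glucose replicate 1 or 2 was left out, and 0.41 or -0.12 when TGF-beta1 replicate 1 or 2 was. Leaving out 1 array unbalances the array pairs between the groups, so these values mix the pair difference with the group difference. They cannot settle its direction, which was upwards within both pairs on both kept probe sets. The array pair moved Mdm2 by 0.43, about as much as Gadd45a. The dim probe set 1457929_at was below the filter.

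In all, 18 of the 22 probe sets passed the filter on low values, and all 10 genes had at least 1 of them. Of those 18, 8 rose, 4 fell and 6 did not pass when limma with the block was run on all 27022 kept probe sets, of which 6.94% rose and 8.91% fell. The array pair moved 7 of the 18 by more than the group did: 1 probe set of Btg2, 1 of Sesn1, 2 of Ccng1, both kept ones of Mdm2 and 1 of Gadd45b. Over the 10 genes the median absolute difference was 0.53 between groups and 0.13 between array pairs, beside 0.09 and 0.24 over all tested genes. All 10 had the same sign within both pairs, as did 68.3% of all tested genes. On the log2 scale, 7 genes had both TGF-beta1 arrays above both low glucose arrays (9.83% of all tested genes): the 6 that rose and Gadd45b, whose deposited intensities overlapped. Sesn1 alone had both below (11.1%). A difference of at least 0.5 was reached upwards by 4 genes, Gadd45a, Cdkn1a, Btg2 and Plk2 (1.19% of all tested genes), and downwards by 1, Sesn1 (0.612%).

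**Figure D3:**
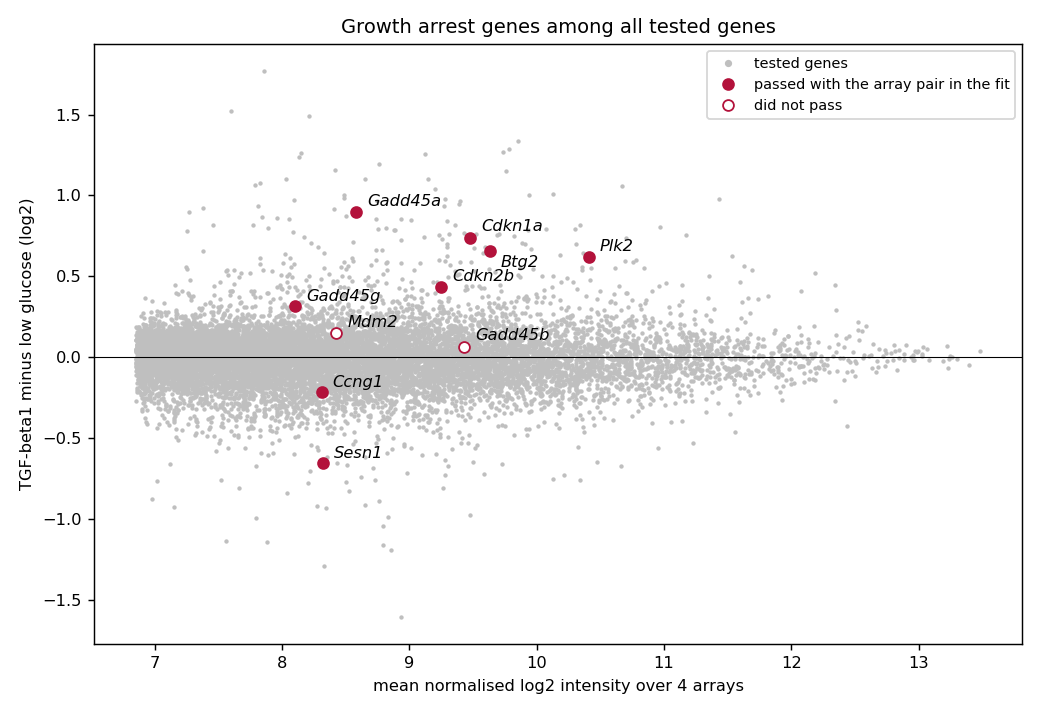
Log2 difference, TGF-beta1 minus low glucose (y axis), against the mean normalised log2 intensity over 4 arrays (x axis) for the 13565 tested genes in grey, with the 10 growth arrest genes in red, filled where they passed with the array pair in the fit. Gadd45a, Cdkn1a, Btg2 and Plk2 lie above 0.5 and Sesn1 below -0.5, while Mdm2 and Gadd45b lie inside the grey band.

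The genes whose centred log2 values over the 4 arrays lay nearest to those of Gadd45a were Sgk1, a serum- and stress-induced kinase (Euclidean distance 0.077), Fst, the activin-binding follistatin (0.094), and Clcf1, a cytokine of the interleukin 6 family (0.11). Nearest to Sesn1 were Rbm47, an RNA-binding protein (0.12), Acaa2, an enzyme of fatty acid oxidation (0.12), and Slc37a4, the glucose-6-phosphate transporter (0.13). These distances describe 4 arrays and were not tested.

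Of 26 tested p53 targets outside the 10 genes, 5 rose, 2 fell and 19 did not pass (median 0.04). Over all tested genes 18.5% were called, 7.89% as higher and 10.6% as lower. Ddit4, an inhibitor of mTORC1, rose by 0.76 ± 0.081, Plk3, a stress-responsive polo-like kinase, by 0.43 ± 0.065 and Phlda3, which restrains AKT, by 0.37 ± 0.082, and the other 2 that rose were Aen and Perp. Ddb2, a sensor of ultraviolet damage, fell by 0.41 ± 0.066, and Xpc, a partner in the same repair pathway, was the other that fell. Among p53-induced death genes, Bbc3 was at 0.05 ± 0.065, Pmaip1 at 0.14 ± 0.065 and Apaf1 at -0.02 ± 0.064, and these did not pass. Aen and Perp, which rose, are also linked to cell death, at 0.24 ± 0.074 and 0.21 ± 0.066. Tnfrsf10b (-0.02), Pidd1 (0.08) and Ei24 (-0.17) did not pass. The death genes named here are not all such genes, since Bax was not on the arrays under 1 symbol and Fas was below the filter.

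Among 14 tested p53 relatives and regulators 1 rose (beside 7.89% of all tested genes), 1 fell (10.6%) and 12 did not pass (median -0.01). Ppp1r13l, which encodes iASPP, an inhibitor of p53, rose by 0.58 ± 0.079 (0.40, 0.24 and 0.06 on its other probe sets), and Chek1, a checkpoint kinase, fell by 0.32 ± 0.064. Mdm4, the partner of Mdm2, was at 0.12 ± 0.065 and did not pass. Trp53, the gene of p53 itself, was not on the arrays under 1 symbol and was not tested.

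Of 7 other CDK inhibitors and pocket proteins tested, 0 rose, 4 fell and 3 did not pass (median -0.25). Beside them, 7.89% of all tested genes rose and 10.6% fell. Rbl2 and Rbl1, the pocket proteins p130 and p107, fell by 0.35 ± 0.068 and 0.30 ± 0.071. In both the groups overlapped, and the array pair moved them by more, 0.67 and 0.60. Cdkn2c and Cdkn2d, the p15 relatives p18 and p19, fell by 0.28 ± 0.082 and 0.25 ± 0.081. Cdkn1b, which encodes p27, was at -0.15 ± 0.080 and did not pass, with 0.02 and -0.31 within the pairs. Among 15 G1 cyclins, CDKs and E2F factors 2 rose, 1 fell and 12 did not pass (median 0.07), beside the same shares. Ccnd1, cyclin D1, rose by 0.31 ± 0.081 and Cdk6, a kinase that p15 inhibits, by 0.22 ± 0.081, while Ccne2, a cyclin E, fell by 0.26 ± 0.067.

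Among 9 tested relatives of the genes 3 rose (beside 7.89% of all tested genes), 0 fell (10.6%) and 6 did not pass (median 0.15). Sesn3, a sestrin like Sesn1, rose by 0.46 ± 0.070 on 1 probe set, with 0.08 on another, so the tested probe sets of these sestrins had opposite signs. Btg1, a relative of Btg2, rose by 0.26 ± 0.075 and Tob2, of the same family, by 0.22 ± 0.076.

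Of 16 tested regulators of the TGF-beta growth arrest 4 rose, 4 fell and 8 did not pass (median -0.03). Beside them, 7.89% of all tested genes rose and 10.6% fell. Myc, a growth-promoting factor that holds down Cdkn2b and Cdkn1a in epithelial cells, rose by 0.75 ± 0.081 (0.78 and 0.73 within the pairs), a size close to that of Cdkn1a. Smad7, an inhibitor of the TGF-beta receptor, rose by 0.50 ± 0.072 (0.69 and 0.30 within the pairs), and the other 2 that rose were Cebpb, at 0.47, and Foxo1, at 0.30. The largest change of these regulators was the fall of Id3, which encodes an inhibitor of basic helix-loop-helix factors, by 0.99 ± 0.076. Its relatives Id2 and Id1 fell by 0.71 ± 0.078 and 0.43 ± 0.082. Smad3, a TGF-beta signal carrier, fell by 0.27 ± 0.082, with -0.13 and -0.05 on its other probe sets. Of 7 tested kinases downstream of Gadd45 proteins 0 rose, 2 fell and 5 did not pass (median -0.05), beside the same shares. Map2k6 fell by 0.43 ± 0.066 and Mapk14, the p38 kinase it activates, by 0.22 ± 0.082, while Map3k4, the MEKK4 bound by Gadd45 proteins, was at 0.03 ± 0.074. The other kept probe sets of Mapk14 were at -0.23, -0.09, 0.03 and 0.07. As for Rbl1 and Rbl2, the groups overlapped for Phlda3, Aen, Xpc, Chek1, Cdk6, Sesn3, Cebpb, Foxo1 and Smad3, which passed with the block.

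**Figure D4:**
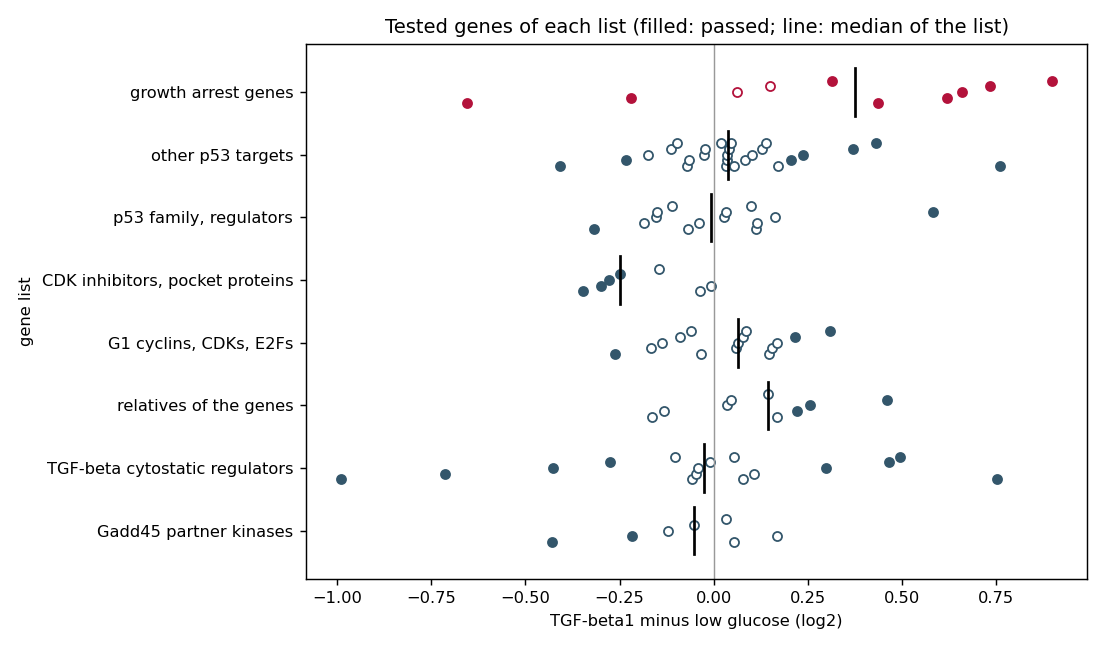
Log2 difference, TGF-beta1 minus low glucose (x axis), of the tested genes of 8 lists (y axis), filled where they passed with the array pair in the fit, with a line at the median of each list. The median of the growth arrest genes is 0.38 and that of the other CDK inhibitors and pocket proteins -0.25, and the other medians lie between -0.05 and 0.15.

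The label of mesangial cells was set against marker lists. Of 12 mesangial and pericyte markers 11 were on the arrays under 1 symbol and 9 passed the filter, with a summed intensity of 5344 to 6406 in low glucose and 6490 to 7739 in TGF-beta1, most of it vimentin. Pdgfrb and Itga8 were at the 53.4 and 40.03 percentiles of brightness among probe sets, and Gata3 and Thy1 were below the filter. Of 11 tubule markers 9 passed it, with sums of 7994 to 8928 and 8409 to 8456, and Cdh16, Aqp1 and Pax8 were at the 97.2, 96.7 and 90.8 percentiles. Of these 9, Krt18 and Krt8 rose by 0.54 and 0.40 (7.89% of all tested genes rose). Aqp1, Cdh16 and Lrp2 fell by 0.67, 0.31 and 0.29 (10.6% fell), and 4 did not pass. In absolute size these changes lay within the range of the growth arrest genes, but Aqp1 fell slightly more than Sesn1 (0.65), the largest fall among them. The tubule sums of the groups overlapped. Sums were 1076 to 1393 and 1001 to 1377 for podocyte markers (4 of 6 kept) and 2162 to 2406 and 1848 to 2053 for leukocyte ones (7 of 8 kept). Of 7 endothelial markers 1 passed the filter, and their sum was at most 353 on any array. The mesangial sums were higher and the leukocyte sums lower in TGF-beta1 than in low glucose on every array. Each of these sums was mostly 1 gene. Vimentin read 5106 and 4346 in low glucose against 5298 and 6239 in TGF-beta1, and Csf1r 1658 and 1274 against 952 and 1269. Of the 9 tested mesangial markers vimentin, Acta2 and Mcam rose by 0.29, 0.32 and 0.34, 0 fell and 6 did not pass. Of the 4 tested podocyte markers Podxl rose by 0.23, Synpo fell by 0.58 and 2 did not pass. Other kept probe sets of Podxl and Synpo were at -0.01 and 0.07. The groups overlapped for Mcam and Podxl. Of the 7 tested leukocyte markers Csf1r fell by 0.38 and the other 6 did not pass, so the lower leukocyte sums describe mainly Csf1r. The part of these sums and of the single markers in the differences of the growth arrest genes was not tested. In these bulk samples, fewer cells of a type and less RNA per cell cannot be told apart.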

How the data were processed

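The authors deposited 1 linear intensity per probe set and array; the sources used here do not say how probes were summarised or arrays scaled. Groups came from the titles, and replicate numbers, given in listing order, pair no arrays. From the intensities, log2(intensity + 46.88) was computed, with the 25th percentile over all arrays as pseudocount, and quantile normalised. Of 45101 probe sets (64 controls), 34945 had 1 symbol. Those whose mean log2 value reached the 40th percentile were kept (27022), and the brightest of each gene was tested (13565 genes).

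Tests used limma 3.58.1 (R 4.3.3; lmFit, then eBayes with its trend option), two-sided, with Benjamini-Hochberg adjustment at 0.05, without and with the array pair as a fixed block. Pairs came from 18 spike-in probe sets; the arrays whose titles share a repeat tag fall in 1 pair. With the block, 1 residual degree of freedom remains and the prior is infinite; without it, 2 remain and the prior is 2.79. Both were run on simulated data whose spread was set from the blocked fit. Without the block, 0% of genes changed by 0.25, 0.5 or 1 were called. With it, 53.7%, 100% and 100% were called where genes of the same brightness shared a spread. Where the spread varied between genes, these shares were 0%, 22.4% and 97%. A shared spread is what the blocked fit assumes, so the simulation with it cannot test that assumption.

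Members and lists were chosen with earlier results of these data known. All 10 genes are named, up to 4 genes of largest absolute moderated t per list, Myc and Mdm4, and the 3 nearest genes of 2 members. Xpc, Aen, Perp, Tnfrsf10b, Pidd1, Ei24, Id1, Bbc3, Pmaip1, Apaf1, Cdkn1b, Cebpb, Foxo1, Smad3, Lrp2 and Map3k4 complete counts or roles. So do other probe sets of some list genes, such as Sesn3. Some of these were chosen after their values were seen. Alternatives were other pseudocounts, scalings, filters, probe sets and priors, and leaving out each array. Figures used matplotlib 3.10.9.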

Additional observations from a re-analysis of the deposited data

How the results depend on the processing

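With the array pair in the fit, 8 of the 10 genes passed under each of 8 other settings (pseudocounts of 16 and 100, the deposited scaling, median centring, no filter, a 60th percentile filter, every kept probe set tested, no intensity trend), and all 80 member values under them kept their direction and side of the threshold. Testing all kept probe sets called 4285 in place of 2503. Without the replicate block, and with the block at the prior of the unblocked fit, 0 genes and 0 of the 10 members passed with limma, so the 2503 calls appeared only with the replicate block for the array pair and the infinite prior together. The fit without the block called between 0 and 11 genes when 1 array was left out. The median of the 10 genes was 0.33 with a pseudocount of 100, and 0.36 to 0.46 with any 1 array removed. Mdm2, which did not pass, was at -0.01 without low glucose replicate 2, at -0.12 with TGF-beta1 replicate 2 left out, and at 0.32 or 0.41 when the first array of either group was dropped instead. Leaving out 1 array was done without the block, since the blocked fit then has no residual degree of freedom, and it unbalances the array pairs between the groups. The number of arrays limits the precision, and dim probe sets give understated differences.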
